A study of Homo sapiens with 148 samples.

Results

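HNF4A, HNF4G, ONECUT1, ONECUT2 and ONECUT3 were followed through the pancreatic differentiation of H9 human embryonic stem cells. They were the 5 rows of the table of mean TPM (a transcript level scaled for transcript length and for the total of a library) that carry these gene names, out of 50451 entries with 49085 different names, and each name had 1 entry. The RNA-seq samples were 12 of the 148 samples in the series, 2 for each of 6 stages of the wild-type H9 line, which is a single embryonic stem cell line. The stages were undifferentiated H9 cells (hESCs), definitive endoderm (DE, day 4 of the protocol), primitive gut tube (PGT, day 7), pancreatic progenitors (PP, day 14), organoids of in vitro differentiated beta cells (SC-β organoids, day 35), and a stage labelled PH. The study does not say in the sources used here what PH stands for or on which day it was collected, so it was kept outside the time order. All stages other than hESCs had received the pancreatic differentiation treatment.

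HNF4A and HNF4G are nuclear receptors that bind DNA as dimers and control genes of lipid transport, blood proteins and absorption in liver, gut and pancreas. ONECUT1, ONECUT2 and ONECUT3 pair a single CUT domain with a homeodomain. They act in developing liver and pancreas, where ONECUT1 is placed upstream of PDX1 and of endocrine commitment, and also in neurons, and ONECUT1 is a known regulator of HNF4A. Inherited defects of HNF4A cause a form of diabetes of the young, which is one reason why these factors are followed in beta cell protocols.

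HNF4A has a distal and a proximal promoter, and both are shown because they carry a site word of the ONECUT family, which binds words such as ATCAAT. The windows are the 250 bases before each annotated start (RefSeq sequences, GRCh38.p14, plus strand), and capitals mark ATCAAT, its reverse complement ATTGAT, or the GATA word AGATAA. The distal window, at chr20:44355449-44355698, lies just upstream of the first exon, and the proximal one, at chr20:44400989-44401238, lies in an intron of the distal transcripts, where the start site is 45540 bases downstream of the distal one.
HNF4A distal: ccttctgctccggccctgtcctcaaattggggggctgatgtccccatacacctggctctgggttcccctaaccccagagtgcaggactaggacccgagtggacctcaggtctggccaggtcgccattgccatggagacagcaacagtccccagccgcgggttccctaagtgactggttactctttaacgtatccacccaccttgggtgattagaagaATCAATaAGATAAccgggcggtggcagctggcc
HNF4A proximal: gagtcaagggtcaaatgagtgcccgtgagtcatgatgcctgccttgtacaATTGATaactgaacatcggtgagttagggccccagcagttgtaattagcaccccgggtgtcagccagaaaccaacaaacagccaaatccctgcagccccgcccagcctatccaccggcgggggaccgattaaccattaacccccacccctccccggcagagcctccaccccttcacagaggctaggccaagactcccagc
In the distal window ATCAAT began 33 bases and AGATAA 26 bases before the start, without overlapping. In the proximal window ATTGAT began 200 bases before the start. ATCAAT on either strand was present in 5.58% of 35116 promoter windows of the same length, and AGATAA in 9.17%. Other words searched on both strands were ATCGAT (0.655% of windows), the HNF4 word CAAAGTCCA (0.325%) and the FOXA words TGTTTAC (2.98%) and TGTTTGC (3.23%), and neither HNF4A window held them. The table gives 1 value per gene, so it does not separate the transcripts of the distal and proximal promoters.

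The ONECUT1 window is shown as the contrast in base composition, at chr15:52790337-52790586 on the minus strand. It ends at the RefSeq start, and it lies within the GENCODE span of the gene, which begins further upstream.
ONECUT1: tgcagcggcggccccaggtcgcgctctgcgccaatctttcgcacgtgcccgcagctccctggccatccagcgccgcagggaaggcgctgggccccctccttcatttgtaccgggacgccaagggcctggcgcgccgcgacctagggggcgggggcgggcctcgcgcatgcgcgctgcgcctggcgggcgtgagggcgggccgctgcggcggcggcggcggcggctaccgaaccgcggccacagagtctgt
It held 37 CpG dinucleotides and was 76.8% G or C, and the ONECUT2 window (chr18:57435124-57435373, plus strand) held 20 and was 68.8% G or C. Each HNF4A window held 8 CpG, and they were 58.4% and 58.0% G or C, beside medians of 11 CpG and 58.0% over all windows. Neither ONECUT window held any of the words searched. RefSeq promoter windows were matched for 3 of the 5 genes.

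HNF4A spans chr20:44355699-44432845 on the plus strand, HNF4G chr8:75407914-75566834 on the plus strand, ONECUT1 chr15:52755053-52791078 on the minus strand, ONECUT2 chr18:57435374-57491298 on the plus strand and ONECUT3 chr19:1753506-1780988 on the plus strand (GENCODE version 44, GRCh38). All are protein-coding. No stretch of 50 bases in the annotated transcripts of one of them occurred in those of another. The share of such stretches that also occurred in transcripts of other genes was 1.11% for HNF4A, 0.477% for HNF4G and 0.336% for ONECUT3, and 0% for ONECUT1 and ONECUT2.

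Each stage is 1 value, the authors' mean of the replicates, so no value below carries an error, no difference was tested, and neighbours in an order of levels cannot be told apart by replicate spread. Differences are log2 ratios of TPM + 1, and a gene is counted as higher or lower from 2-fold on that scale. Known markers were read in hESCs, DE, PP and SC-β organoids. POU5F1 was at 1449 TPM in hESCs, SOX17 at 96.1 in DE and PDX1 at 3.17 in PP. In SC-β organoids INS was at 298 TPM, and GCG, the glucagon gene and not a beta cell marker, was higher at 2793. In PH, 11 neuronal markers summed to 1178 TPM, against 88.8 to 181 at the other stages. The median log2 ratio to hESCs over names at 1 TPM or more in either stage was 0.58 at DE, 0.41 at PGT, 0.31 at PP, 0.28 at PH and 0.83 at SC-β organoids. In bulk RNA, fewer cells of a type and less transcript per cell cannot be told apart.

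HNF4A reached the highest level of the 5 genes. Its mean level was 0.176 TPM in hESCs, 19.7 at DE, 33.7 at PGT, 3.90 at PP, 5.60 at SC-β organoids and 0.292 at PH. It was thus high in DE and PGT, at an intermediate level in PP and SC-β organoids, and under 1 TPM in hESCs and PH. In PGT 3596 of the 49085 names were higher than HNF4A, and in SC-β organoids 13581 were. The PGT level of HNF4A was 8.64-fold its PP level without a pseudocount.

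HNF4G, the paralog known mainly from gut epithelium, had a different course. Its levels were 0.330 TPM in hESCs, 1.49 at DE, 5.91 at PGT, 3.93 at PP, 8.57 at SC-β organoids and 0.695 at PH. Its highest level was in SC-β organoids, where HNF4A had already come down from its own, and its lowest was in hESCs. The order of its stages was SC-β organoids, PGT, PP, DE, PH and hESCs.

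ONECUT1 was the ONECUT gene with the highest level at every stage other than SC-β organoids. The values were 1.32 TPM in hESCs, 4.88 at DE, 17.1 at PGT, 20.6 at PP, 5.64 at SC-β organoids and 4.80 at PH. PP and PGT formed its high stages, with a log2 ratio of 0.26 between them, and SC-β organoids, DE and PH lay close together below them. It was the only one of the 5 genes above 1 TPM at all 6 stages.

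ONECUT2 was highest in PP, after a low level in PGT. It was measured at 0.568 TPM in hESCs, 1.86 at DE, 0.805 at PGT, 12.3 at PP, 5.70 at SC-β organoids and 2.41 at PH. It was below 1 TPM in PGT, where ONECUT1 was near its maximum, and 15.3-fold higher in PP without a pseudocount.

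ONECUT3 was detected above 1 TPM in PP alone. Its means were 0.0103 TPM in hESCs, 0.0174 at DE, 0.0473 at PGT, 2.18 at PP, 0.440 at SC-β organoids and 0.0415 at PH. Its log2 ratio of PP to hESCs was 1.66 with the pseudocount, which understates changes between low values. At 2.18 TPM it was below 15196 other names in PP.

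**Figure D1:**
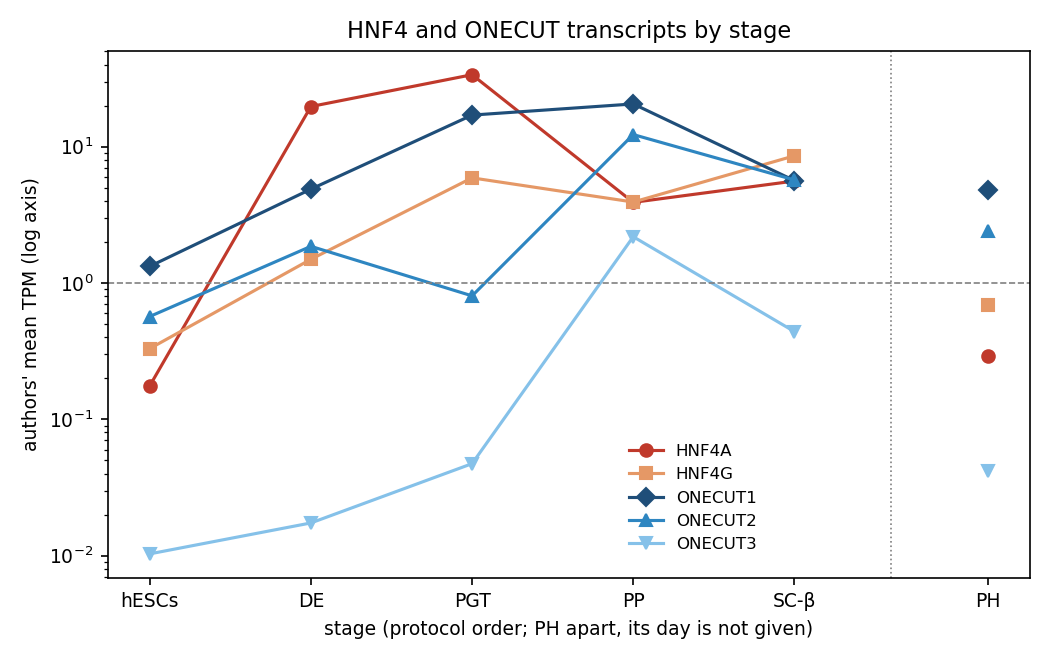
Mean TPM of HNF4A, HNF4G, ONECUT1, ONECUT2 and ONECUT3 (log axis) at each stage, with lines along the protocol order and PH apart; the dashed line is at 1 TPM and there are no error bars because each point is 1 deposited mean. HNF4A peaks in PGT at 33.7 TPM, the 3 ONECUT genes peak in PP and HNF4G is highest in SC-β organoids at 8.57 TPM.

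Because TPM is scaled for length, the members of a family can be set beside each other. HNF4A made up 93.0% of the summed HNF4 TPM at DE and 85.1% at PGT, 49.9% at PP, 39.5% at SC-β organoids, 34.8% in hESCs and 29.6% at PH. The balance passed from HNF4A to an even pair in PP, and HNF4G was the higher one, by 1.53-fold, in SC-β organoids. The hESC and PH shares rest on sums of only 0.506 and 0.987 TPM. In the ONECUT family, ONECUT1 held 69.6% of the summed TPM in hESCs, 72.3% at DE, 95.2% at PGT, 58.7% at PP, 47.9% at SC-β organoids and 66.2% at PH. ONECUT2 went from 4.49% of the family in PGT to 35.02% in PP and 48.4% in SC-β organoids, where it stood level with ONECUT1. ONECUT3 reached 6.23% in PP, 3.73% in SC-β organoids, and stayed under 1% elsewhere. The ONECUT sum was 35.05 TPM in PP, its highest, and the HNF4 sum was 39.7 TPM in PGT.

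**Figure D2:**
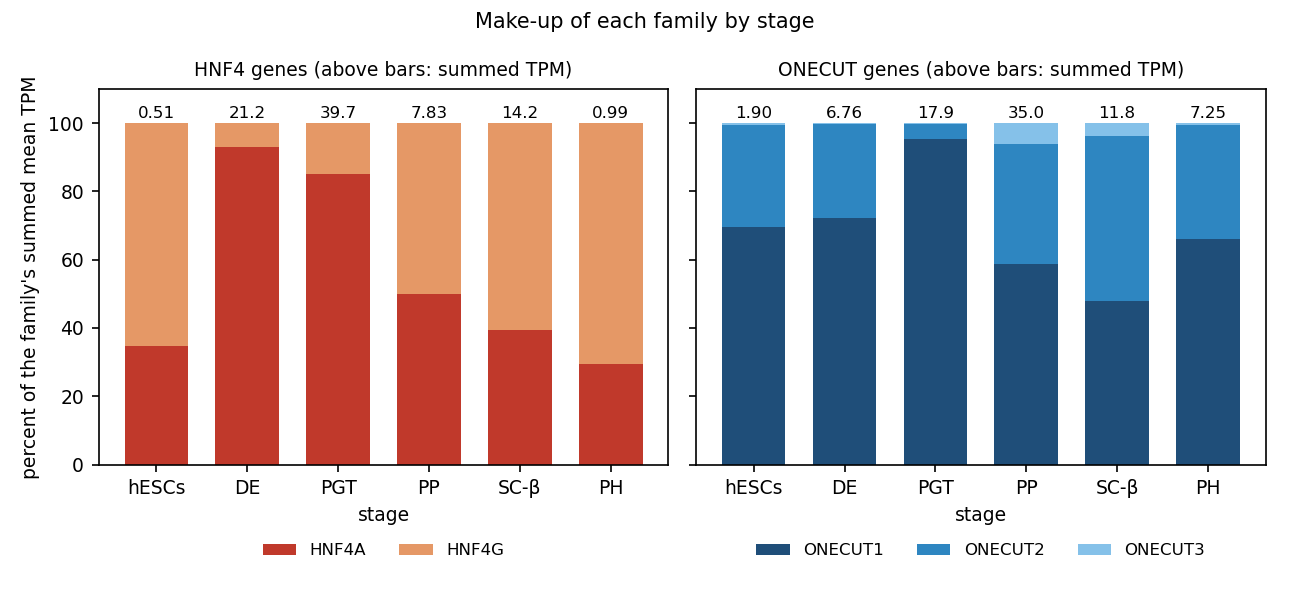
Percent of the summed mean TPM of the HNF4 genes (left) and the ONECUT genes (right) held by each gene at each stage, with the summed TPM above each bar. HNF4A fills 93.0% of the HNF4 bar in DE and 39.5% in SC-β organoids, and ONECUT2 goes from 4.49% of the ONECUT bar in PGT to 48.4% in SC-β organoids.

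Against hESCs, the number of the 5 genes that were higher was largest in PP at 2-fold with a pseudocount of 1 TPM. At 4-fold, for which no share of names was computed, 3 were higher in each of PGT, PP and SC-β organoids. In DE 2 were higher, HNF4A (log2 ratio 4.14) and ONECUT1 (1.34), where 28.2% of the names at 1 TPM or more in either stage were. HNF4G at 0.91 and ONECUT2 at 0.87 lay just under 2-fold in DE, and a pseudocount of 0.1 TPM brought both over it, for a count of 4. The shares of names were not computed with that pseudocount, so counts under it have no share to be set beside. In PGT 3 were higher, HNF4A (4.89), ONECUT1 (2.96) and HNF4G (2.38), against 23.4% of names. In PP all 5 were, from 1.66 for ONECUT3 to 3.22 for ONECUT1, against 18.9% of names. In SC-β organoids 4 were higher, HNF4G (2.85), HNF4A (2.49), ONECUT2 (2.096) and ONECUT1 (1.51), at a stage where 42.4% of names were higher. In PH only ONECUT1 (1.32) and ONECUT2 (1.12) passed 2-fold, against 27.3% of names, and HNF4A was at 0.14. None of the 5 was lower than in hESCs at any stage. ONECUT3 was under 1 TPM in both stages of the comparisons of DE, PGT, PH and SC-β organoids with hESCs, so with a pseudocount of 1 TPM it could not have passed 2-fold there. With a pseudocount of 0.1 TPM its ratio in SC-β organoids was 2.29, which made all 5 genes higher there.

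Along the protocol, HNF4G (1.47) and ONECUT1 (1.62) were higher in PGT than in DE, 2 of the 5 genes beside 4.94% of names. HNF4A was at 0.75 and ONECUT2 at -0.66 in this step. From PGT to PP, ONECUT2 (2.88) and ONECUT3 (1.60) were higher, beside 6.3% of names, and HNF4A (-2.82) was lower, beside 7.46%. HNF4G at -0.49 and ONECUT1 at 0.26 stayed within 2-fold, with the same sign as the others of their family. From PP to SC-β organoids, ONECUT1 (-1.70) and ONECUT3 (-1.15) were lower, in a step where 1.84% of names were lower and 20.7% were higher. ONECUT2 at -0.99 lay just inside 2-fold and passed it, at -1.22, once each stage was rescaled by its median ratio. None of the 5 was higher in this step, and HNF4G came nearest at 0.96.

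All 5 genes were lower in PH than in PP, with log2 ratios from -1.54 for HNF4G to -1.96 for ONECUT2, beside 12.8% of names. Without a pseudocount the PP level was 13.4-fold the PH level for HNF4A, 5.65-fold for HNF4G, 4.29-fold for ONECUT1, 5.09-fold for ONECUT2 and 52.6-fold for ONECUT3, though ONECUT3 was at only 0.0415 TPM in PH. Relative to PH, SC-β organoids were higher for HNF4G (2.50) and HNF4A (2.35), 2 of the 5 genes beside 28.1% of names. With a pseudocount of 0.1 TPM, for which no share of names was computed, ONECUT2 (1.21) and ONECUT3 (1.93) also passed 2-fold, for a count of 4. ONECUT1 differed little (0.20, and -0.22 after rescaling by median ratios), and ONECUT2 was at 0.97. Other cell type markers also moved with PH. The sum of 8 neural progenitor markers was 327 TPM there and at most 122 elsewhere, and 7 of the 8 were at 1 TPM or more, OLIG2 being the exception. Of the 11 neuronal markers 10 were at 1 TPM or more, with TUBB3 at 545 and STMN2 at 301 TPM and the motor neuron factor LHX3 near 0 (0.0187). Compared with PP, 8 of the 11 were higher in PH, beside 11.5% of names. ISL1 (-1.14) and MNX1 (-1.33), which are also factors of endocrine cells, were lower. The 8 mesenchymal markers summed to 578 TPM in PH and to 1429 in SC-β organoids, against at most 81.7 at the other stages. The part of these in the levels of the ONECUT and HNF4 genes was not tested. Structural RNAs such as RN7SK and the signal recognition particle RNAs took 50.9% of the TPM total in PH and 31.8% to 42.2% at the other stages. Totals recomputed without them and the 100 most abundant names left all 5 genes lower in PH than in PP.

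**Figure D3:**
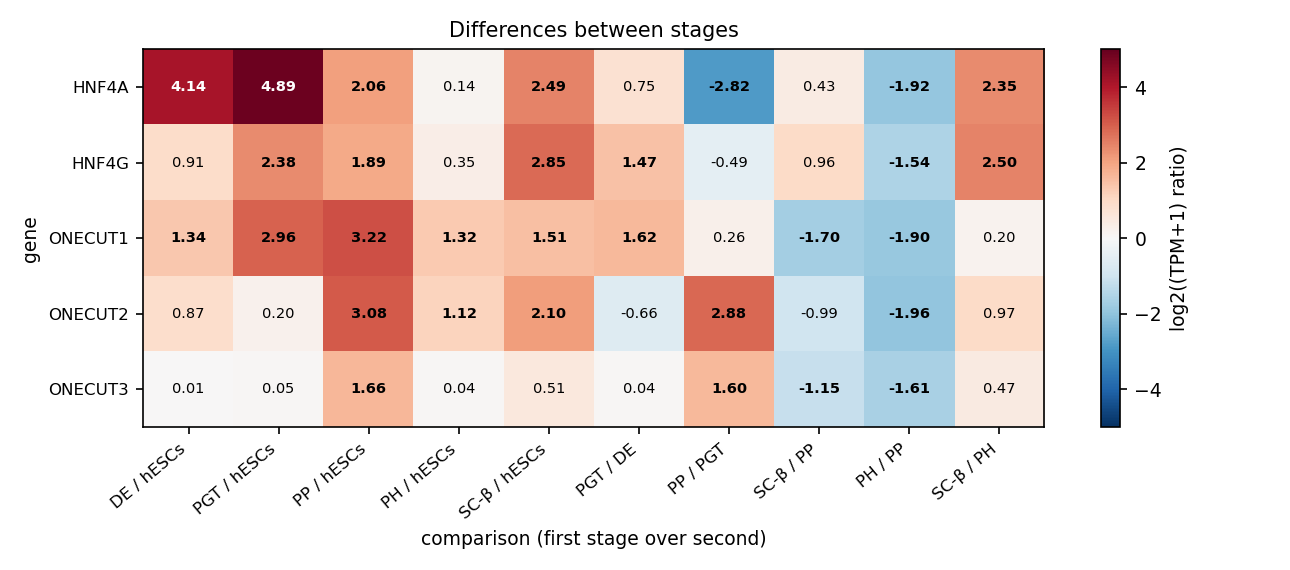
Log2 ratios of mean TPM + 1 of the 5 genes (rows) in the 10 comparisons (columns, first stage over second); red is higher, blue is lower and bold values are at least 2-fold. The PH over PP column is blue for all 5 genes, from -1.54 to -1.96, and the PP over PGT column holds -2.82 for HNF4A beside 2.88 for ONECUT2.

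Genes that HNF4 factors are known to drive in liver were set beside HNF4A. Of 17 such genes, all in the table, those higher than in hESCs numbered 5 at DE, 13 at PGT, 11 at PP, 4 at PH and 15 at SC-β organoids. Their median log2 ratio to hESCs was 0.07 at DE, 3.93 at PGT, 2.49 at PP, 0.61 at PH and 3.55 at SC-β organoids, where the medians over all names were 0.12, 0.04, 0.04, 0.00 and 0.23. The shares of names higher than in hESCs were 28.2%, 23.4%, 18.9%, 27.3% and 42.4% in that order. They cover names at 1 TPM or more in either stage, whereas the counts are over all 17 genes. The counts at DE and PH lay near the shares. In this list 6 of the 17 genes were listed at 0 in hESCs, so their ratios rest on the pseudocount. The lipoprotein gene APOA1 was at 0.536 TPM in hESCs, 33.7 at DE, 252 at PGT, 23.2 at PP, 36.0 at SC-β organoids and 1.35 at PH. APOA2 had the high stages of HNF4A, with 72.0 TPM in DE and 212 in PGT, and was at 10.1 TPM in PP. APOB, the structural protein of large lipoprotein particles, was highest in PGT at 147 TPM, with 13.7 TPM in DE and 22.9 in SC-β organoids. Transthyretin, TTR, was at 0.306 TPM at DE, 943 at PGT, 55.8 at PP, 1229 at SC-β organoids and 35.9 at PH, so it was near 0 in DE, where HNF4A was at 19.7 TPM.

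From PGT to PP, 11 of the 17 liver-type genes were lower, beside 7.46% of the names at 1 TPM or more in either stage. The median log2 ratio of the 17 genes was -2.06, where that of all names was 0.00. The largest decreases were those of RBP4 (-4.28), the retinol carrier, APOA2 (-4.27) and TTR (-4.05). AMBP, the precursor of a plasma protease inhibitor, went the other way, from 13.4 TPM in PGT to 119.5 in PP. SERPINA1, alpha-1 antitrypsin, was nearly level at 49.7 and 46.1 TPM. In the same step HNF4A went from 33.7 to 3.90 TPM.

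Of 10 genes of intestinal epithelium that HNF4 factors drive, 1 was higher than in hESCs in DE, 4 at PGT, 5 at PP, 1 at PH and all 10 in SC-β organoids, the stage at which HNF4G was highest. Their median log2 ratio to hESCs was 0.02, 0.16, 1.17, 0.08 and 3.09 in that order, where the medians over all names were 0.12, 0.04, 0.04, 0.00 and 0.23. The shares of names higher than in hESCs were 28.2%, 23.4%, 18.9%, 27.3% and 42.4%, over names at 1 TPM or more in either stage. Of the 10 genes only VIL1 was at 1 TPM or more in hESCs, DE and PH. A gene under 1 TPM in both stages cannot pass 2-fold, so the counts in DE and PH cannot be set against the shares. MUC13, a membrane mucin, was at most 0.0516 TPM at the other stages and at 20.5 TPM in SC-β organoids. FABP1, a fatty acid carrier of liver and gut, was at 8.18 TPM at PGT, 1.80 at PP and 35.3 at SC-β organoids and was listed at 0 in hESCs and DE. VIL1, the microvillus protein villin, was highest in PGT like HNF4A, with 24.6 TPM at DE, 125 at PGT, 28.8 at PP and 23.7 at SC-β organoids. The gut homeobox gene CDX2 was at 1.38 TPM at PGT, 2.09 at PP and 2.16 at SC-β organoids. Markers of other cells accompany these values. In SC-β organoids the hepatocyte genes ALB and AFP were at 39.3 and 34.3 TPM and the intestinal gene SI at 4.33 TPM, beside 298 TPM for INS. Whether cells of liver or gut type contributed to the HNF4 levels was not tested.

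**Figure D4:**
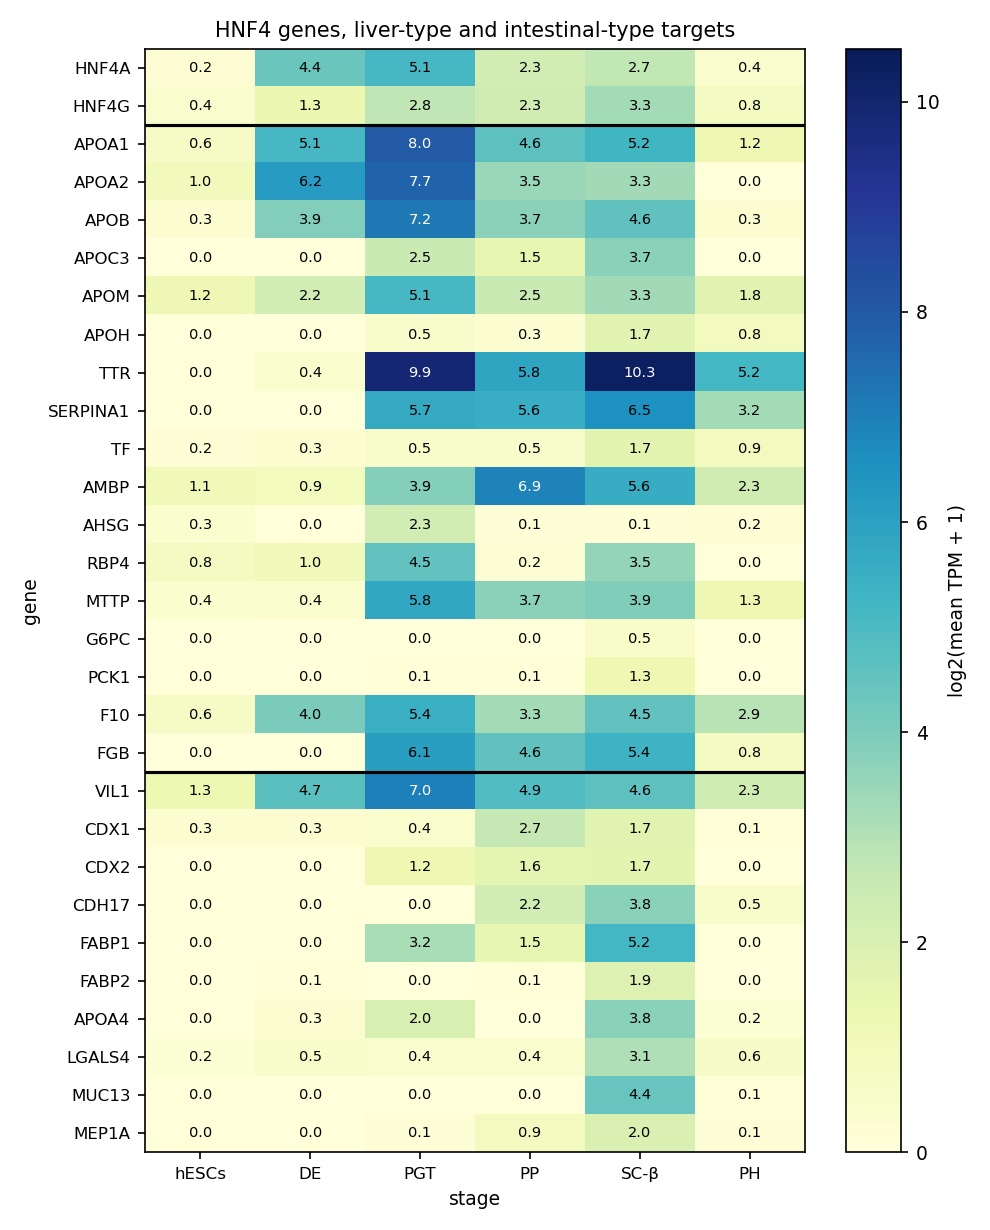
Levels as log2(mean TPM + 1) of HNF4A and HNF4G (top), 17 liver-type genes (middle) and 10 intestinal-type genes (bottom) at each stage, darker being higher. APOA1, APOA2 and VIL1 are darkest in PGT like HNF4A, and all 10 intestinal-type genes are above 1 in SC-β organoids, as MUC13 is at that stage alone.

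Coregulators of HNF4 were present from the start. Of 12, 11 were at 1 TPM or more in hESCs. Compared with hESCs, 7 were higher in DE, 5 at PGT, 3 at PP, 5 at PH and 9 at SC-β organoids, where their median log2 ratio was 1.57 and that of names at 1 TPM or more was 0.83. The shares of names higher at these stages were 28.2%, 23.4%, 18.9%, 27.3% and 42.4%. Rescaling by median ratios left 2 coregulators higher in PGT. CREBBP, a histone acetyltransferase, was at 9.72 TPM in hESCs, 41.4 at DE, 45.9 at PGT, 31.0 at PP, 71.6 at SC-β organoids and 32.4 at PH. The coactivator PPARGC1A, which joins HNF4A on gluconeogenic genes, was at 3.51 TPM at PGT, 1.63 at PP and 19.5 at SC-β organoids, with its level in PH at 1.22. Its relative PPARGC1B was the coregulator that was lower than in hESCs in PGT, PP and PH, with a log2 ratio of -2.03 in PP. NR0B2, a corepressor without a DNA-binding domain, was listed at 0 in hESCs and stood at 3.89 TPM in PP and 3.90 in SC-β organoids.

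Other NR2 receptors, the subfamily of HNF4A and HNF4G, were compared in the same way. Of 10, 3 were higher than in hESCs in DE, 3 at PGT, 4 at PP, 4 at PH and 6 at SC-β organoids, where their median log2 ratio was 1.16. Over all 10 receptors, the counts lay near the shares of names in DE (28.2%) and PGT (23.4%). The shares cover only names at 1 TPM or more in either stage. The shares were 18.9% in PP, 27.3% in PH and 42.4% in SC-β organoids, where 4 receptors were higher after rescaling by median ratios. NR2F6 was lower in PH than in hESCs (-1.65). RXRA, the retinoid X receptor of liver and gut, had its highest level in PGT (44.8 TPM) like HNF4A and was lower in PP (14.1 TPM, log2 ratio -1.60). NR2F1 and NR2F2, which bind sites that HNF4 also binds, were near 0 in DE (0.0485 and 0.379 TPM), at 0.783 and 17.7 TPM in PGT, and at 57.9 and 50.3 TPM in SC-β organoids. In PP they stood at 13.4 and 29.1 TPM, beside 3.90 TPM for HNF4A.

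Relatives of the ONECUT genes with CUT domains, CUX1, CUX2 and SATB1, were at 1 TPM or more at every stage. Of these 3, 2 were higher than in hESCs in DE, PGT, PP and SC-β organoids, and all 3 were in PH, beside 28.2%, 23.4%, 18.9%, 42.4% and 27.3% of names in that order. After rescaling by median ratios 0 of the 3 were higher in PP and 1 in SC-β organoids. CUX2 and SATB1 were highest in PH, at 19.7 and 50.4 TPM, where all 3 ONECUT genes were lower than in PP.

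Among 9 genes of the pancreatic progenitor circuit around ONECUT1, 5 were higher in PP than in PGT and 2 were lower, with a median log2 ratio of 1.02, where 6.3% of names were higher and 7.46% lower. Of the 3 ONECUT genes 2 were higher and none was lower. PDX1, the pancreatic homeobox factor, was at 0.244 TPM at PGT, 3.17 at PP and 1.57 at SC-β organoids, and near 0 in PH (0.0173). SOX9 was at 5.90 TPM at PGT, 23.7 at PP, 25.2 at SC-β organoids and 27.2 at PH. GLIS3 was at 4.14, 12.0 and 43.1 TPM in PGT, PP and SC-β organoids. FOXA2, the pioneer factor of endoderm, was at 39.6 TPM at DE, 48.7 at PGT and 13.2 at PP, and was lower in PP than in PGT like HNF4A. PROX1, a homeobox factor of liver and pancreas, was the other gene lower in PP (2.55 TPM, from 9.09). PTF1A, a factor of acinar cells and also of hindbrain and spinal cord neurons, was at 1.02 TPM in PP and at 7.61 in PH, where ONECUT1 was at 4.80. NEUROG3, which marks endocrine commitment, stayed at or under 0.602 TPM at every stage.

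**Figure D5:**
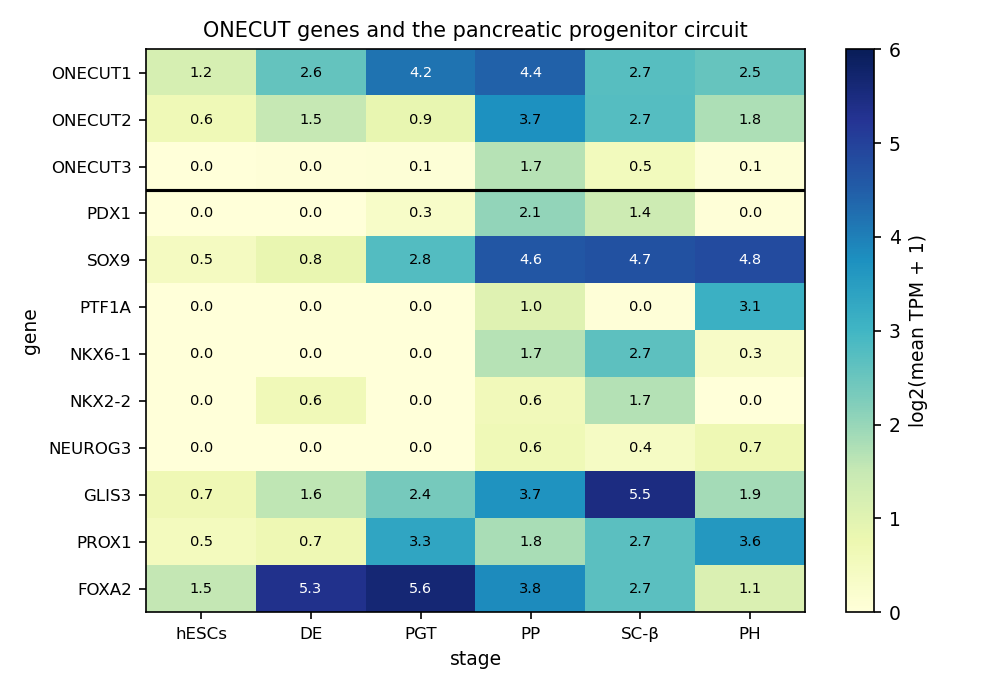
Levels as log2(mean TPM + 1) of the 3 ONECUT genes (top) and 9 genes of the pancreatic progenitor circuit at each stage, darker being higher. ONECUT2, ONECUT3 and PDX1 are darkest in PP, FOXA2 is dark in DE and PGT, and PTF1A is highest in PH at 7.61 TPM.

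Over the 6 stages, ONECUT2 and ONECUT3 had the profiles most alike among the 5 genes (Pearson's r of log2(TPM + 1) 0.90), and HNF4A and ONECUT2 had an r of -0.05, as a description over 6 means that share their normalization. HNF4A and HNF4G had r 0.63. Root-mean-square differences of stage-centred log2 levels were taken over about 14304 names at 5 TPM or more at some stage. Clone, LOC, MIR and small RNA names were left out, and so were names of the form of NKX6-1. By this difference, the names closest to HNF4A were ACPP, an acid phosphatase (0.43), C1orf168 (0.46) and SEPP1, a selenium carrier of plasma (0.47). SEPP1 was at 66.5 TPM at DE, 220.0 at PGT and 20.6 at PP. Those closest to HNF4G were NPC1L1, the cholesterol importer of gut epithelium (0.15), ADH6, an alcohol dehydrogenase (0.20), and EPHX2, an epoxide hydrolase (0.21). NPC1L1 was at 3.26 TPM at PGT, 2.75 at PP and 5.17 at SC-β organoids. ONECUT1 was nearest to ADAMTS18 (0.32), HOMER3 (0.37) and C17orf96 (0.38), with ADAMTS18 at 24.4 TPM in PGT and 28.6 in PP. ONECUT2 was nearest to ADAMTS5 (0.22), SQRDL (0.28) and NT5E (0.30), of which ADAMTS5, a protease of the extracellular matrix, was at 0.0844 TPM in PGT and 10.2 in PP. ONECUT3 was nearest to TP53TG1 (0.16), TSEN34 (0.19) and ZNF385C (0.23). TSEN34 was at 15.3 TPM in hESCs and 43.3 in PP, where ONECUT3 was at 0.0103 and 2.18, so this closeness depends on the pseudocount.

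Annotated neighbours within 100 kb were compared with each gene. HNF4A-AS1, an antisense RNA inside HNF4A, was at 2.04 TPM at DE, 3.02 at PGT, 0.202 at PP and 0.886 at SC-β organoids, and was listed at 0 in hESCs and PH. HNF4A itself had the same order of stages. Since the sources used here do not say whether counting used strand, reads of HNF4A and of its antisense RNA may not be separated. R3HDML, 4.5 kb from HNF4A, was at most 0.0516 TPM at every stage, and SERINC3 and PKIG were highest in DE, at 58.1 and 59.1 TPM. GDAP1L1, 74.8 kb away, was at 38.3 TPM in PH and 6.93 in hESCs, and at most 1.09 at the other stages, where HNF4A was between 3.90 and 33.7. The nearest annotated gene in the table to HNF4G was PKMP4, a pseudogene, at 14.3 TPM in DE and 3.51 in SC-β organoids, and CASC9, a long noncoding RNA, was at 15.1 TPM in DE. Near ONECUT2, FECH was within 8.13 to 15.0 TPM at all stages and ST8SIA3 within 0.0630 to 1.62. ATP8B3, 1.1 kb from ONECUT3, was at 4.42 TPM at PGT, 2.71 at PP and 0.309 at SC-β organoids, so its highest stage was not that of ONECUT3.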

How the data were processed

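Total RNA of 2 samples per stage was sequenced after removal of ribosomal RNA; per the labels, reads were aligned to hg38 with HISAT2 2.2.0 and levels estimated with StringTie 2.1.6, and the annotation is not given in the sources used here. The authors deposited TPM averaged over the replicates of a stage, so no interval, SD or test was possible. The study states a minimum depth for its RNA-seq replicates, but the means do not show the depth of each sample. TPM is relative to the total of a library, so abundant structural RNAs lower all other values.

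Entries that share a name were summed. Ratios were log2((TPM + 1)/(TPM + 1)), with 2-fold as the threshold. Background shares count names at 1 TPM or more in 1 of the stages compared. Neighbours lie within 100 kb (GENCODE version 44), and nearest profiles are the 3 names with the smallest root-mean-square difference. All list genes and neighbours could be named, first the 2 highest and the 2 with the largest ratio of a list. Y_RNA and Metazoa_SRP, names shared by many loci, were left out as neighbours. 1 gene of the lists is not reported here. Ratios, 2-fold calls and rescaling were tested on the PGT levels with known changes put in and no noise added. The summing of entries was not tested in this way. Python 3.11.15, numpy 2.4.6 and pandas 2.3.3 were used. The genes and lists were chosen with earlier results of these data known, and the sequence words after the promoters had been read. Alternatives were a pseudocount of 0.1 TPM, rescaling by median ratios over 13938 names, totals without structural RNAs and the 100 most abundant names, the highest entry of a name, names at 1 TPM or more, and a 4-fold threshold.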

Additional observations from a re-analysis of the deposited data

How the results depend on the processing

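No paired analysis was possible because the deposited columns are means over the replicates, and for the same reason no replicate could be left out. No ratio of the 5 genes of 2-fold or more reversed its sign under these alternatives. Ratios of single list genes were not recomputed. Counts were recomputed for the liver-type, intestinal-type, coregulator, NR2, CUT and circuit lists. They covered PGT, PP and SC-β organoids against hESCs, and PP against PGT. List counts in DE and PH, and all counts of cell type markers, were not recomputed. The shares of names were not recomputed either, so the counts below have no matched share. With a pseudocount of 0.1 TPM, 4 of the 5 genes were higher in DE than in hESCs, 1 was lower in PGT than in DE, 1 was higher in SC-β organoids than in PP and 4 were higher in SC-β organoids than in PH; of the lists, 1 liver-type gene was lower in PP than in hESCs and 2 coregulators were lower in PP than in PGT. Without the structural RNAs and the 100 most abundant names, 4 of the 5 genes were higher in DE than in hESCs. The factors of the rescaling by median ratios differ from that of hESCs by a log2 value of 0.48 in DE, 0.34 in PGT, 0.25 in PP, 0.03 in PH and 0.52 in SC-β organoids, and ratios of TPM + 1 move by other amounts because of the pseudocount. The rescaling left 2 coregulators higher in PGT, 0 CUT relatives higher in PP and 1 higher in SC-β organoids, and 1 NR2 receptor lower in SC-β organoids, all against hESCs. At 4-fold, the genes higher than in hESCs numbered 1 in DE, 3 in each of PGT, PP and SC-β organoids, and 0 in PH. Those higher in PGT than in DE numbered 0, and those higher in PP than in PGT 1. Those lower than in PP numbered 0 in both SC-β organoids and PH. At 4-fold against hESCs, 3 intestinal-type genes were higher in PP and 6 in SC-β organoids, 2 coregulators were higher and 0 lower in PGT and 4 were higher in SC-β organoids, 2 NR2 receptors were higher in PP, 0 CUT relatives were higher in PGT, PP or SC-β organoids, and 4 circuit genes were higher in PP and 4 in SC-β organoids. At 4-fold from PGT to PP, 0 coregulators were higher, 1 NR2 receptor was higher and 0 lower, and 0 circuit genes were higher and 0 lower. The fewer calls at 4-fold follow from its construction, and the cause of the other changes was not tested. By Pearson's r in place of the root-mean-square difference, the 3 nearest names shared 0 with those of HNF4A, 1 with HNF4G, 1 with ONECUT1, 1 with ONECUT2 and 0 with ONECUT3. Keeping the highest entry of a name changed none of the counts, and could not change those of the 5 genes, which have 1 entry each. Keeping only names at 1 TPM or more could not change any count. With a pseudocount of 1 TPM, a gene under 1 TPM in both stages cannot pass 2-fold.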
